A study of Drosophila melanogaster with 2 samples.

Results

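Genes that encode insulator proteins and factors of promoter architecture were examined for binding by CG11617, a homeobox protein of Drosophila melanogaster. The set held 10 genes (Trl, BEAF-32, CTCF, su(Hw), Cp190, mod(mdg4), Chro, pita, M1BP and Dref), taken by symbol from the 13945 protein-coding genes on the arms 2L, 2R, 3L, 3R, 4 and X. All 10 were found in the annotation. The data are anti-GFP chromatin immunoprecipitation with sequencing (ChIP-seq) on whole adults, males and females pooled and of unstated age, from a transgenic line whose CG11617 protein carries GFP at the C terminus. The sample descriptions name an anti-GFP antibody and the antibody label names CG11617. The descriptions are followed here, and which of them is right was not tested. The labels list 2 biological replicates, numbered 2 and 3, in 1 group with no other genotype or treatment, and they do not say what drives the transgene or whether the native gene is intact. A control experiment is named in the labels and was not analysed here. Whole flies mix all tissues, so the cells in which a site is bound cannot be told from these lists.

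Insulator proteins bind DNA sites that separate neighbouring regulatory domains, and many of them sit close to the start sites of active genes. Several recognise DNA directly (BEAF-32, CTCF, su(Hw) and pita), while Cp190, mod(mdg4) and Chro are mostly brought in by such proteins. DREF, M1BP and GAGA factor, the product of Trl, bind short motifs in the promoters of broadly active or developmentally controlled genes. The genes are described here as places where tagged CG11617 was found, and the lists do not measure the levels of the encoded proteins.

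All 10 genes carried a CG11617 summit in the authors' optimal list. That list is set by the IDR criterion (irreproducible discovery rate), which compares peak ranks between replicates. Every IDR entry at the 10 genes had the same rank there as in the list of pooled candidates. The optimal list therefore follows pooled signal and does not show that each single entry was reproducible. It placed a summit within 500 bp of an annotated transcription start site (TSS) or inside the transcribed region of 10 of 10, against 32.9% of all protein-coding genes. Counting only summits within 500 bp of a TSS, 9 of 10 had one, against 30.0% of all genes, and mod(mdg4) was the exception. Longer genes meet the gene body criterion more often: it was met by 27.7% of genes up to 5 kb (5000 bp), 49.0% of those from there to 20 kb (20000 bp) and 46.8% of longer ones, classes that held 6, 3 and 1 of the members. The genes were chosen with results of these data known, so no test of the set was made. In the list of pooled candidates, from which the IDR entries come, all 10 had a summit within 500 bp of a TSS, as did 61.6% of all genes, or 65.3% with the gene body. In the replicate 2 list all 10 had one, against 59.8% of all genes (65.1% with the gene body), and in the replicate 3 list all 10, against 61.6% (65.3%).

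The signals at these genes spanned a wide range. The authors' signal value of a peak has no stated definition and is not scaled between lists, so it is used only to describe and rank entries within a list. The IDR entries ran from 163 to 5197 with a median of 263. The highest IDR signal at a locus was 2601 for Trl, 1814 for Chro, 1419 for Cp190, 1165 for Dref, 1111 for mod(mdg4) and 1047 for M1BP. It was 311 for pita, 291 for BEAF-32, 209 for CTCF and 173 for su(Hw). The widest step in this order was from M1BP to pita: of all genes with an IDR summit at the locus, 6.08% had a higher signal than M1BP and 51.9% a higher one than pita. The median over the 10 genes was 1079, beside 320.4 over the 4587 protein-coding genes with an IDR summit at the locus, whose quartiles were 219 and 518. The upper 6 genes lay above that upper quartile, and CTCF and su(Hw) lay below the lower one. One of the 577 IDR entries of highest signal (676.0 or more, a limit chosen after the values were seen) was found at 6 of the 10 genes and at 5.12% of all genes. Within 500 bp of a TSS, such an entry was found at 4 of the 10 and at 4.32% of all genes.

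**Figure D1:**
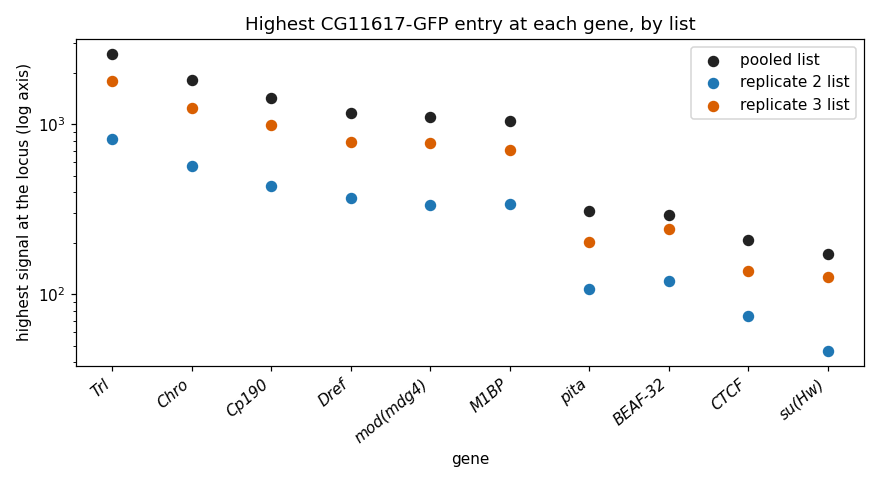
Highest signal at each gene (log axis) in the pooled list and in the lists of replicates 2 and 3. The 6 genes from Trl to M1BP lie above 1000 in the pooled list and the 4 genes from pita to su(Hw) lie at 311 or lower, and in each replicate list the same 6 genes are the upper ones.

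**Figure D2:**
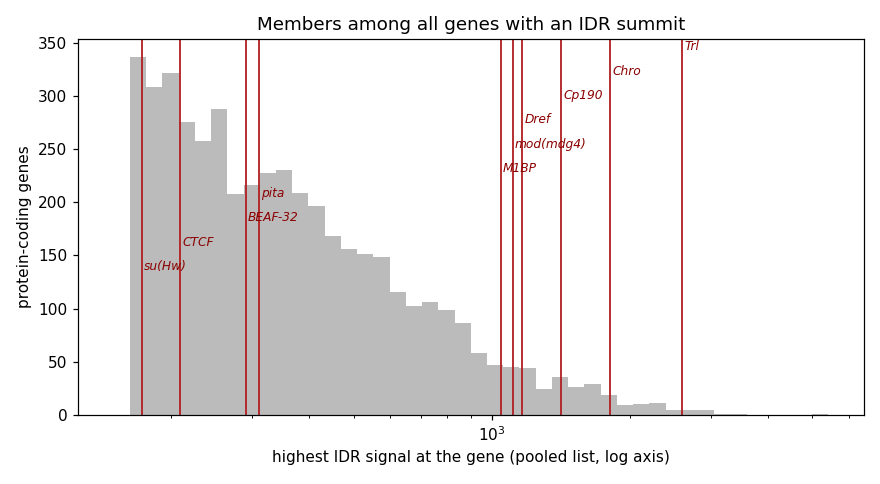
Histogram of the highest IDR signal at each of 4587 protein-coding genes (log axis), with red lines at the 10 members. Trl lies at 2601 in the upper tail and su(Hw) at 173 near the lower end.

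The order of the genes was nearly the same in both replicates. In replicate 2 the highest signal was 815 at Trl, 572 at Chro, 434 at Cp190, 371 at Dref, 341 at M1BP and 338 at mod(mdg4), then 121 at BEAF-32, 107 at pita, 74.3 at CTCF and 46.6 at su(Hw). In replicate 3 it was 1786 at Trl, 1249 at Chro, 987 at Cp190, 793 at Dref, 774 at mod(mdg4) and 703 at M1BP, then 241 at BEAF-32, 204 at pita, 138 at CTCF and 127 at su(Hw). M1BP and mod(mdg4) exchanged places between replicates, and pita stood above BEAF-32 in the pooled list only. Over the 5760 IDR entries found in both replicates, the median ratio of replicate 3 to replicate 2 signal was 2.21, or 1.14 on the log2 scale (SD 0.42 over entries). Of the 9 steps between neighbours in the pooled order, 6 were smaller than this SD. The other 3 were those from Trl to Chro, from M1BP to pita and from BEAF-32 to CTCF. This SD is the spread of replicate ratios over all entries and not the error of a step. It therefore cannot decide which steps are real, and Trl, Chro, Cp190 and Dref stood in this order in both replicates.

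The strongest site of the set was inside Trl. This gene encodes GAGA factor, a BTB zinc-finger protein that binds GA-rich promoter DNA and opens chromatin. Trl lies at chr3L:14747929-14761049 on the minus strand of dm6, is 13.1 kb long and has 4 annotated start sites. Its main entry had its summit in an intron at 14759515, 1534 bp downstream of the nearest of these, with a pooled signal of 2601 (rank 12 of 5777). It ranked 10 in replicate 2 (signal 815) and 13 in replicate 3 (1786), and the replicate summits were 10 bp apart. The gene also held a weaker intronic IDR entry at 14756167 (pooled 622, 242 in replicate 2 and 388 in replicate 3), 1169 bp from the nearest TSS. The entry closest to a start was at 14757223, 113 bp downstream of a TSS and in the 5' UTR (pooled 597, 160.2 in replicate 2 and 445 in replicate 3). In the pooled list the entry at a TSS ranked 729 and the strongest one 12. A further 6 pooled candidates at Trl did not pass the IDR filter, of which the highest was 153, just under the lowest IDR signal of 163. The bases from 50 bp before to 50 bp after the main summit, chr3L:14759465-14759565, are shown on the strand of Trl because they are the strongest binding site of the set.
Trl: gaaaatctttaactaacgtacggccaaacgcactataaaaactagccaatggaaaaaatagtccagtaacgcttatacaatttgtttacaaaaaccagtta
These bases held none of the 6 motifs searched for the factors of the set, GAGAG included, so no base is in capitals.

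**Figure D3:**
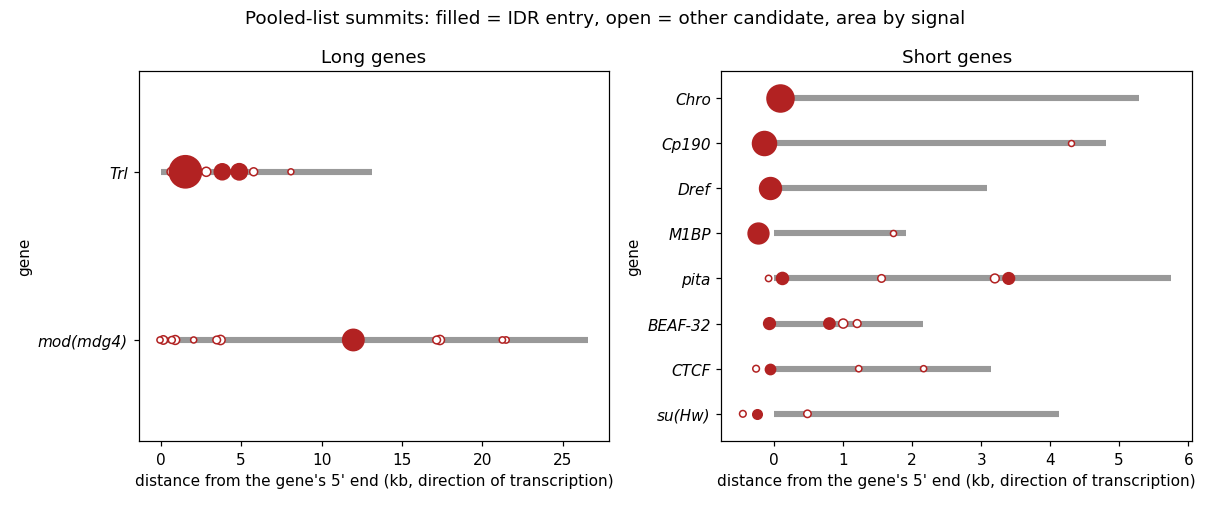
Summits of the pooled list along each gene, in kb from the 5' end of the gene in the direction of transcription. Grey bars are the transcribed regions, filled circles IDR entries, open circles the other candidates, and circle area grows with signal. The main entries of Trl (2601) and mod(mdg4) (1111) lie inside the gene, and those of the other 8 genes lie near a start site.

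Dref encodes DREF, which binds the DNA replication-related element TATCGATA in promoters of genes for growth and replication. Dref lies at chr2L:9964147-9967229 on the minus strand and has 1 start site. Its only IDR entry had its summit at 9967288, 59 bp upstream of that start, with a pooled signal of 1165 (rank 171). It ranked 162 in replicate 2 (371) and 178 in replicate 3 (793), and the replicate summits were 8 bp apart. RpL13, a gene for a protein of the large ribosomal subunit, starts on the other strand 83 bases away from the Dref start, and the summit was 25 bp upstream of it. The single entry therefore belongs to both genes by position. The bases between these start sites, chr2L:9967230-9967312, are shown on the strand of Dref because the summit falls in them at base 25, and capitals mark the match to CGATA (here on the opposite strand).
Dref: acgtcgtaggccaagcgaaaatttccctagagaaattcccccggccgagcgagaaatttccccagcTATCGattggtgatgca
This match lies 42 bp from the summit, and the full TATCGATA was not in these letters.

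M1BP encodes motif 1 binding protein, a zinc-finger protein found at promoters of constitutively active genes and associated with paused RNA polymerase II. M1BP lies at chr3R:8729790-8731698 on the minus strand. Its IDR entry had its summit at 8731932, 234 bp upstream of the single start, with a pooled signal of 1047 (rank 218). It ranked 210 in replicate 2 (341) and 230 in replicate 3 (703), and the replicate summits were 118 bp apart, against a median of 34 bp over all IDR entries. CG8202 starts on the other strand, 392 bases from the M1BP start, and the summit was 159 bp upstream of it. The bases within 50 bp of the summit, chr3R:8731882-8731982, are shown because of their composition.
M1BP: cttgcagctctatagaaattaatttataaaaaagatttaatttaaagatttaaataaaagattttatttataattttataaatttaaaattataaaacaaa
Only 10.9% of these bases are G or C, and 0.121% of the 5777 IDR windows of this length had a share this low or lower.

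Among the proteins brought in by others, Chro had the second highest signal of the set. Chro encodes Chromator, a chromodomain protein of the interbands of polytene chromosomes and of the spindle. Chro lies at chr3L:22873702-22878984 on the minus strand with 3 start sites. Its only entry in the pooled list had its summit at 22878901, 83 bp downstream of the outermost start and in the 5' UTR, with a pooled signal of 1814. It ranked 48 in the pooled list, 48 in replicate 2 (572) and 46 in replicate 3 (1249), and the replicate summits were 8 bp apart. Ssl1, which encodes a subunit of the transcription factor TFIIH, starts on the other strand 104 bases away, and the summit was 188 bp upstream of that start. The bases between the start sites, chr3L:22878985-22879088 on the strand of Chro, are shown because both genes start at their edges.
Chro: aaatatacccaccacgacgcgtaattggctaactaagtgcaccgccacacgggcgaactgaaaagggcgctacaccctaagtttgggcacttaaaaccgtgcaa
The summit itself lay outside this stretch, on the Chro side.

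Cp190 encodes a BTB zinc-finger protein that joins insulator complexes through most of the DNA-binding insulator proteins. Cp190 lies at chr3R:15270432-15275241 on the minus strand. Its IDR entry had its summit at 15275390, 149 bp upstream of the outer of 2 start sites, with a pooled signal of 1419 (rank 105). It ranked 115 in replicate 2 (434) and 102 in replicate 3 (987), and the replicate summits were 56 bp apart. CG4338 starts on the other strand, 280 bases from Cp190, and the summit was 132 bp upstream of it. The bases within 50 bp of the summit, chr3R:15275340-15275440 on the strand of Cp190, are shown as the second of the AT-rich sites.
Cp190: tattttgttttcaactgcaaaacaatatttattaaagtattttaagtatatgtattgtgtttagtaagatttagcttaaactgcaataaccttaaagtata
Their share of G and C was 20.8%, and 5.5% of all IDR windows were at or below it.

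At mod(mdg4) the binding was far from the gene's own start. This gene encodes a family of BTB proteins, among them a partner of su(Hw) in the gypsy insulator, and its messages are made by trans-splicing, in which a common 5' part is joined to 3' parts from separately transcribed units. mod(mdg4) lies at chr3R:21350846-21377401 on the minus strand, and the annotation lists 23 such units, named pre-mod(mdg4), inside it, 9 of them on the plus strand. The main entry had its summit in an intron at 21365426, 11975 bp downstream of the single mod(mdg4) start, with a pooled signal of 1111 (rank 191). It ranked 219 in replicate 2 (338) and 185 in replicate 3 (774), and the replicate summits were 11 bp apart. A weaker IDR summit lay in the same region at 21365627 (pooled 213, 78.9 in replicate 2 and 96.8 in replicate 3). Start sites of 10 pre-mod(mdg4) units fell within 500 bp of each of these summits. Of these, pre-mod(mdg4)-C, -AB and -E are on the minus strand and -Y, -X, -AD, -AE, -W, -V and -U on the plus strand. The main summit was 136 bp upstream of the starts of -C and -AB, 62 bp downstream of that of -E, and 183 bp upstream of the shared start of the 7 plus-strand units. Candidates near other pre-mod(mdg4) starts came close to the lowest IDR signal without passing the filter: 159 beside the starts of -AA, -O and -N, and 157 beside those of 10 further units. At the start of mod(mdg4) itself the highest pooled candidate had a signal of 123 (rank 8109), with 36.1 in replicate 2 and 93.9 in replicate 3.

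The 4 DNA-binding insulator genes had moderate or weak entries, all near a start site. CTCF encodes the fly form of a zinc-finger insulator protein shared with vertebrates. It lies at chr3L:7353578-7356713 on the minus strand with 1 start site. Its IDR entry had its summit at 7356770, 57 bp upstream of that start, with a pooled signal of 209 (rank 4013). In replicate 3 the summit fell at the neighbouring base with a signal of 138 (rank 4430). In replicate 2 the signal was split between an entry of 74.3 (rank 3634), 76 bp downstream of the start, and one of 48.3, 157 bp upstream of it. The bases within 50 bp of the summit, chr3L:7356720-7356820 on the strand of CTCF, are shown because they hold the full DREF element TATCGATA, in capitals, 36 bp from the summit.
CTCF: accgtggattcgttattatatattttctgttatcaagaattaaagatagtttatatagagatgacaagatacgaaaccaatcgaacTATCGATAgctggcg

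The weakest of the 10 was su(Hw), named for suppressor of Hairy-wing, whose zinc-finger product binds the gypsy insulator. It lies at chr3R:14304455-14308589 on the minus strand. Its IDR entry had its summit at 14308840, 251 bp upstream of the single start, with a pooled signal of 173 (rank 5300). It had 41.7 in replicate 2 (rank 8163) and 127 in replicate 3 (rank 4958), a ratio of 3.04. With matching by overlap this departed from the common shift by more than 1 SD (0.42). With matching by summit the ratio was the same, and it was within 1 SD because the SD over all entries was larger (0.53). In replicate 2 a candidate 483 bp downstream of the start was slightly higher (46.6). The summit was also 249 bp upstream of Polr2I, a gene for a subunit of RNA polymerase II on the other strand. No summit at su(Hw) was among the 5777 highest entries of replicate 2, while 1 was among those of replicate 3.

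BEAF-32, whose product was found at the scs' boundary element and binds CGATA repeats, lies at chr2R:14770469-14772630 on the plus strand with 3 start sites. It had 2 IDR entries of similar pooled signal, 291 at 14770402 (67 bp upstream of the outermost start) and 266 at 14771270 (31 bp upstream of the innermost start and in a 5' UTR). The replicates ordered them differently: the outer entry had 67.6 in replicate 2 and 241 in replicate 3, and the inner one had 121 and 148. Their replicate 3 to replicate 2 ratios were 3.56 and 1.22, against the common 2.21, and both departed from it by more than 1 SD. The non-coding antisense RNA asRNA:CR42254 also starts near these summits.

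The gene pita, which encodes a zinc-finger insulator protein with a ZAD domain that recruits Cp190, lies at chr2R:23548967-23554712 on the minus strand. It had an IDR entry at each of its 2 start sites. The outer entry, 121 bp downstream of the outer start, had a pooled signal of 311 (107 in replicate 2 and 204 in replicate 3). The inner entry, 238 bp downstream of the inner start, had 285 (92.3 and 187), and its summit base is also the annotated start of Dcp-1, a caspase gene on the other strand. Ranks were close between replicates, with 2105 and 2423 for the outer entry and 2616 and 2767 for the inner one.

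In all, the 10 genes held 15 IDR entries among 44 pooled candidates. Of these, 11 lay within 500 bp of a start site of the member, 7 upstream and 4 downstream, between 251 bp upstream and 238 bp downstream. By position, 5 summits were in 5' UTRs, 4 in introns and 6 outside the gene, and none was in a coding exon or a 3' UTR. At 6 of the 11 promoter summits a protein-coding gene on the other strand also had a start within 500 bp. Among all 3841 promoter summits in the IDR list the share with start sites on both strands was 37.1%. These 6 include all 4 promoter entries among the 577 of highest signal (Chro, Cp190, Dref and M1BP), for which the bound gene cannot be told from position.

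The replicate ratio depended in part on how entries were matched. With the highest overlapping replicate entry taken, 11 of the 15 entries had a log2 ratio within 1 SD of the common shift, as did 73.1% of all 5760 entries. In this count the weaker mod(mdg4) entry takes the replicate values of the stronger one in the same region. At the main entries of Trl, Chro, Cp190, Dref, mod(mdg4) and M1BP the fold was between 2.06 and 2.29. The 4 entries outside 1 SD were both of BEAF-32, that of su(Hw) and the weaker intronic one of Trl (1.6-fold). With replicate summits matched within 100 bp, 12 of 15 were within 1 SD (now 0.53), as were 77.1% of 5326 entries. The 3 outside were then both of BEAF-32 and the weaker mod(mdg4) entry, whose own replicate values gave a fold of 1.23. The entries of su(Hw) and Trl kept their ratios and were inside this larger SD. The fold of CTCF changed from 1.86 to 2.86 and was within 1 SD both ways. The IDR criterion compares these same replicates, so the values are given as a description only. Every IDR entry at these genes had the same rank in the pooled list, so single entries need not agree between replicates. For the highest entry of each gene the replicate summits were a median 39 bp apart, beside 34 bp over all IDR entries. Those of CTCF (134 bp), M1BP (118 bp), BEAF-32 (57 bp) and Cp190 (56 bp) were the farthest apart.

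**Figure D4:**
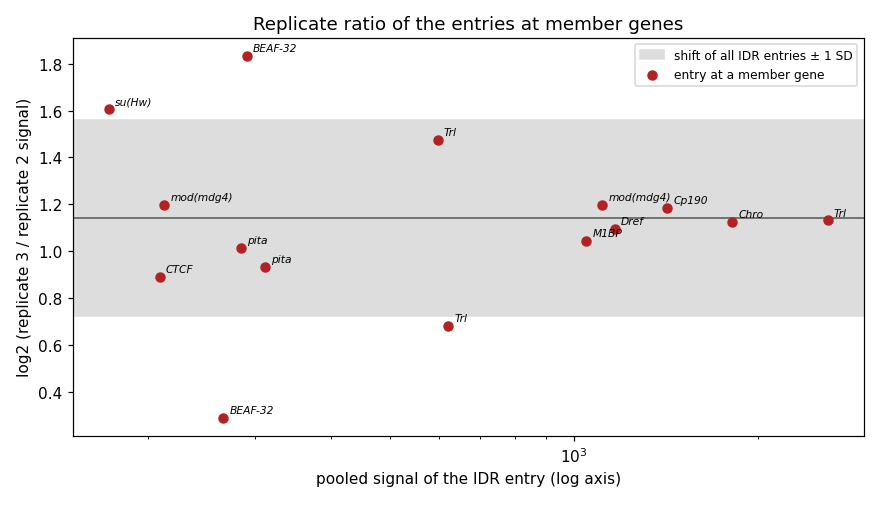
Log2 ratio of replicate 3 to replicate 2 signal against pooled signal (log axis) for the 15 IDR entries at the 10 genes. The grey band is the median of all IDR entries (1.14) ± 1 SD (0.42). The 6 strongest entries lie inside the band, and the weaker mod(mdg4) point takes the replicate values of the stronger entry in the same region.

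Short motifs of the factors were searched around the summits, as a description of the sequence. In windows reaching 50 bp to either side of a summit, read on both strands, CGATA, part of the BEAF-32 site, was at 5 of 15 summits (Chro, Dref, CTCF and both of pita) and at 18.6% of all 5777 IDR windows. It is contained in TATCGATA, which was at 1 (CTCF) and at 2.46% of all. TGCATA, a core of the su(Hw) site, was at 2 (the main mod(mdg4) entry and the inner pita entry) and at 7.62% of all. GGTCACACT, the M1BP site, GAGAG, bound by GAGA factor, and the CTCF-type AGNNGGCGC were at none of the 15, and at 1.21%, 12.4% and 1.0% of all. Neither BEAF-32 summit held CGATA in this window, and with 100 bp to either side CGATA was at 6 of 15, BEAF-32 included, and at 32.1% of all. Of the other letters searched, TATAAA was at 4 (Trl, CTCF, su(Hw) and M1BP; 19.3% of all), TAACA at 2 (24.8%), TAATTA at 1 (9.61%), and ACATGT (2.37%) and TGACAG (3.08%) at none. Any 1 of the 6 motifs of the factors was at 6 of 15 summits, beside 36.3% of all windows. The share of G and C in the 15 windows ran from 10.9% to 51.5% with a median of 32.7%, beside 36.6% over all. A motif match describes letters and does not show that its factor binds.

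The same lists were read at other genes for such factors, and no difference from the 10 genes was tested. Of 20 other genes of insulator and promoter architecture, 8 carried an IDR summit near a start site (500 bp), against 30.0% of all genes, and 17 had a pooled candidate there, against 61.6%. The highest signals among them were at JIL-1 (892, in an intron), the histone H3 kinase that works with Chromator, and at psq (712, in an intron), which encodes a BTB protein that binds GA repeats. They were followed by pzg (537), which encodes the interband protein Z4, and by Trf2 (536, in an intron), which encodes a TBP-related factor. Lower IDR entries were at Cap-H2 (264), of the condensin II complex, at Clamp (220.4), whose product binds GA repeats, at lolal (202) and at Opbp (195). The median of the 8 highest signals was 400.2. No IDR entry was found at the insulator genes dwg, ZIPIC, Ibf1, Ibf2 or insv, at zeste (z), or at vtd, MBD-R2 and Nipped-B, whose highest pooled candidates ran from 59.9 at vtd to 107 at MBD-R2. Ibf1 and Ibf2 share 1 candidate (77.1) between their starts. Elba1, Elba2 and Elba3, which encode an insulator complex of the early embryo, had no entry in any of the lists. One of the 577 entries of highest signal was present at 2 of the 20 genes (JIL-1 and psq, in introns), beside 5.12% of all genes. Within 500 bp of a TSS, such an entry was present at 0 of the 20, beside 4.32% of all genes.

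**Figure D5:**
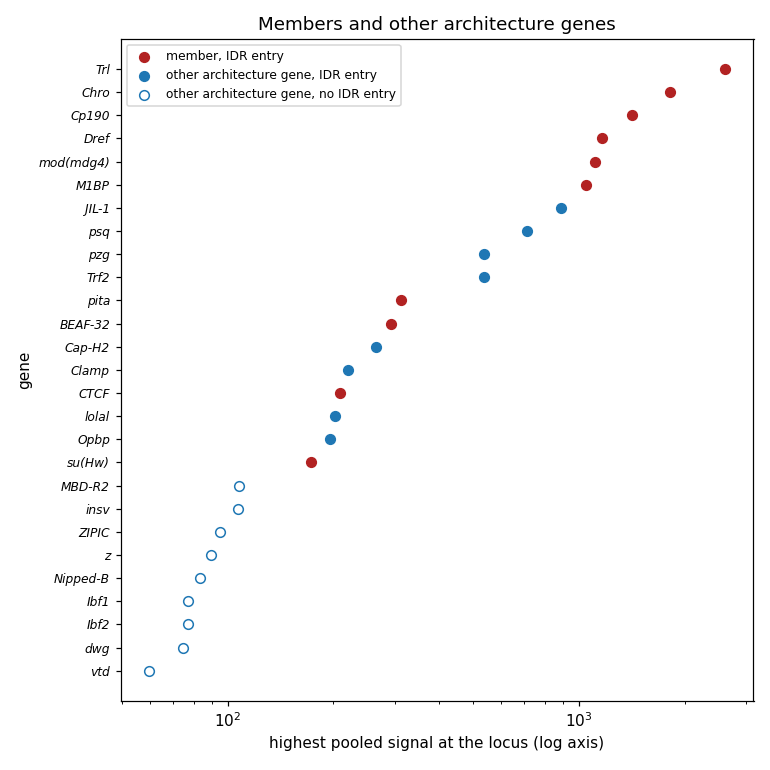
Highest pooled signal at the locus (log axis) of the 10 members (red) and of the 17 other architecture genes with a candidate (blue), filled where an IDR entry is present. The 6 highest genes are members, from 2601 at Trl to 1047 at M1BP, and the 9 open circles lie at 107 or lower.

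The genes nearest in signal to the 2 strongest members were found by distance over log2 signal in the pooled and both replicate lists. For Trl these were CG31145 (pooled 2562, 811 in replicate 2 and 1739 in replicate 3; distance 0.04) and CG18428 (2713, 842 and 1869; distance 0.10). For Chro they were Gcn5, which encodes a histone acetyltransferase, and ver, which encodes a telomere protein. Both have the same entry (1799, 554 and 1243; distance 0.05).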

How the data were processed

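Peak lists (narrowPeak) were deposited by the authors with notes that name them: an optimal IDR list (5777 entries) and candidate lists with background for the pooled replicates and for each replicate (30000 entries each), on dm6. The lists were derived from alignments and a control alignment, per the same notes, and IDR entries were called over both replicates. The signal value in each list is as deposited by the authors. For aligner, peak caller and definition of signal: not given in the sources used here. No list holds counts, so depth is unknown. The dm3 lists were not used here.

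Coordinates are dm6, counted from 1, and sequence is from RefSeq Release 6, whose arm lengths hold all entries. Gene models are Ensembl release 115 (BDGP 6.54). Ranks run from the highest signal. An entry belonged to a gene when its summit was in the gene or at most 500 bp from a TSS of a protein-coding transcript. Replicate ratios used the highest replicate entry overlapping the IDR entry by at least 1 bp. Named are the 10 genes, 20 of 22 listed other architecture genes (2 symbols did not match), genes with a TSS within 500 bp of a member summit, and the 2 genes nearest in signal to each of the 2 strongest members. The members and lists were chosen with earlier results of these data known. Python 3.11.15, numpy 2.4.6 and pandas 2.3.3 were used. In simulated data, 200 of 200 planted promoter summits were recovered.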

Additional observations from a re-analysis of the deposited data

How the results depend on the processing

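The counts of members with a summit ranged from 7 to 10 over the settings. The share of all genes with a summit within 500 bp of a TSS was 30.0% in the IDR list and 61.6% in the pooled list. It is not given for the other settings, so the members were not compared with all genes there. With a summit within 500 bp of a TSS, 9 members became 8 with a window of 250 bp (without su(Hw)), 7 among the 50% of IDR entries with highest signal (without CTCF and su(Hw)) and 10 in the pooled list, and they ranged from 8 to 9 when a replicate was left out. With the gene body included the count was 10, and it ranged from 9 to 10 when a replicate was left out. It was 8 among the 50% of IDR entries with highest signal. For the counts, leaving out a replicate meant reading the 5777 highest entries of the other replicate's list, with no new IDR call. The median highest signal was 1079 in the pooled list, 738 in the replicate 3 list and 339 in the replicate 2 list, which are not scaled to each other. The number of entries within 1 SD of the common ratio was 11 (73.1% of all entries). It was 12 with matching by summit (77.1% of all) and 13 with 50% of the IDR entry covered (80.4%). Summits with any motif of the factors numbered 6 (36.3% of all IDR windows). They numbered 3 in windows of 51 bp (21.1% of all), which hold fewer bases. In the wider motif windows given above they numbered 8 (59.5% of all), so the share over all windows moved in the same direction. The 8 other architecture genes became 4 in the upper 50% of entries and 17 in the pooled list, which differ by construction, and ranged from 7 to 8 with a replicate left out. Of 33 values for single motifs under other settings, 10 moved by more than 1.5 times. No paired analysis was possible because there is 1 group.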
